A study of Mus musculus with 5 samples.

Results

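Immediate early genes are transcribed within minutes of a stimulus such as serum, calcium entry or synaptic activity, from transcription factors that already lie on their promoters, and most of their mRNAs decay quickly afterwards. Many encode transcription factors that switch on a later wave of genes. Others encode effectors, and Arc encodes a protein of the synapse. Its mRNA carries introns in its 3′ UTR, which makes it a natural target of nonsense-mediated mRNA decay (NMD) in neurons. NMD removes mRNAs on which translation stops upstream of an exon junction, and it requires the RNA helicase UPF1.

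A set of 10 genes of this class was followed, taken from the count table by their names: Fos, Fosb, Jun, Junb, Egr1, Egr2, Ier2, Arc, Npas4 and Nr4a1. All 10 members were found among the 55573 genes of the count table, each under 1 identifier, and all 10 were among the 15191 genes that the test could adjust. The cells were Neuro-2A (N2A), a mouse neuroblastoma line grown in 10% serum and sampled without any stimulus named in the labels. The siCtl group (2 libraries, replicates 1 and 3) received 60 pmol of Silencer Negative Control #1 siRNA, and the siUpf1 group (3 libraries, replicates 1, 2 and 3) received 60 pmol of 1 Upf1 siRNA, both by transient transfection. Polyadenylated RNA was sequenced from each. All groups come from 1 cell line and 1 siRNA against Upf1, the labels give no time after transfection, and they do not say that replicates were separate cultures, so p-values measure the spread between these libraries only.

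Libraries held between 20402205 and 27717594 assigned reads. Upf1 had 5217 and 5243 normalised read counts (counts divided by a size factor of each library) in siCtl and 2403, 2496 and 2449 in siUpf1, or 46.8% of the siCtl level (95% interval 43.7% to 50.1%, DESeq2 adjusted p = 7.09e-101). Of 11 neuronal and neuroblastoma markers, 9 had a mean of at least 100 normalised counts, while Nefl and Nefm, the light and medium neurofilament genes, were under 10. The summed level of these 11 markers was 38826 to 39159 in siCtl and 42899 to 45088 in siUpf1. All 5 microglial markers were under 10, with Cx3cr1 and P2ry12 at 0, and the 4 astrocyte markers had means over all 5 libraries of at most 22.7. Among these Aldh1l1 was called lower (from a mean of 34.1 ± 8.15 to one of 15.1 ± 5.40 normalised counts, with a DESeq2 adjusted p of 0.0414), and the summed astrocyte level was 34.0 to 55.6 in siCtl and 24.96 to 32.6 in siUpf1. The summed level of 3 endothelial markers was 214 to 224 in siCtl and 133 to 140 in siUpf1, with Cldn5 at 0, that of 4 fibroblast markers 288 to 306 and 223 to 258, and that of 4 oligodendrocyte markers 462 to 502 and 518 to 548, with Mog at 0. All libraries come from the same neuroblastoma line, which the paper describes as homogeneous. These markers are therefore read as levels within the line and not as numbers of astrocytes, endothelial cells, fibroblasts or oligodendrocytes. The part of these shifts in the results that follow was not tested, and bulk RNA does not show how a level is spread among the cells.

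The comparison asked whether short-lived, inducible mRNAs, among them a known NMD target, changed when UPF1 was depleted. More members fell than rose. Egr1, Fosb, Arc, Ier2 and Junb were called lower (adjusted p under 0.05), Jun and Fos were called higher, and Egr2, Nr4a1 and Npas4 were not called by DESeq2. The 7 called of 10 members stand beside a background of 44.9% of all tested genes, of which 22.0% were higher and 22.9% lower. Those genes include non-coding ones. Among 12346 tested mRNAs with a 3′ UTR of at least 50 nt, 24.8% were called higher and 26.8% lower. By edgeR's quasi-likelihood test 8 of 10 were called, beside 54.6% of genes, and the added call was Nr4a1, lower. The 5 libraries did not overlap between groups for 9 members, all but Npas4, and for 69.4% of tested genes.

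The changes were moderate. The log2 fold change of siUpf1 over siCtl ran from -1.001 (Egr1) to 0.48 (Jun), and the median of the 10 members was -0.30, beside -0.0024 for all tested genes. Among the 7 called members the median absolute log2 fold change was 0.48, and among all called genes it was 0.43. Taken 1 library at a time, the median of the members relative to the siCtl mean was -0.39, -0.24 and -0.31 in siUpf1 replicates 1, 2 and 3.

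**Figure D1:**
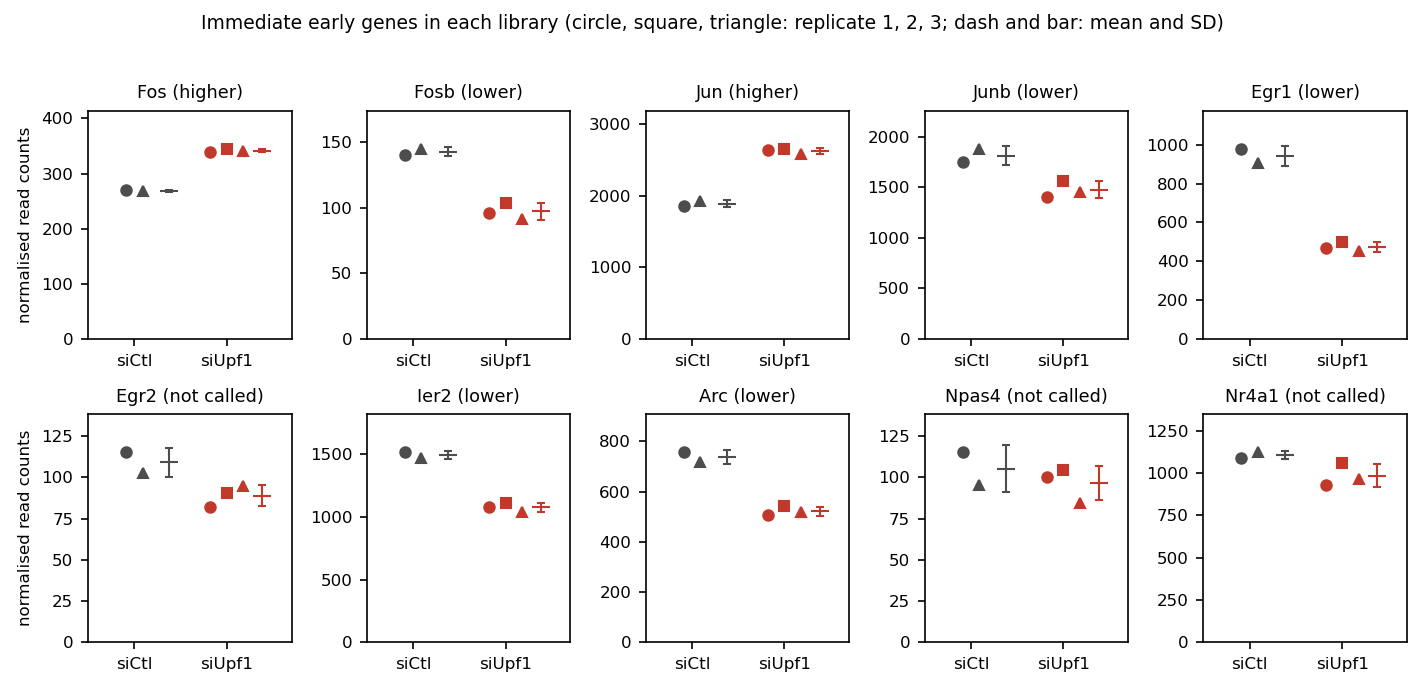
Normalised read counts (vertical axis, from 0) of the 10 members in each siCtl (grey) and siUpf1 (red) library, with mean and SD beside the points and the DESeq2 call in each title. Egr1 sat between 908 and 980.1 in siCtl and between 451 and 499.5 in siUpf1, Jun and Fos were higher in every siUpf1 library, and only Npas4 overlapped between the groups.

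**Figure D2:**
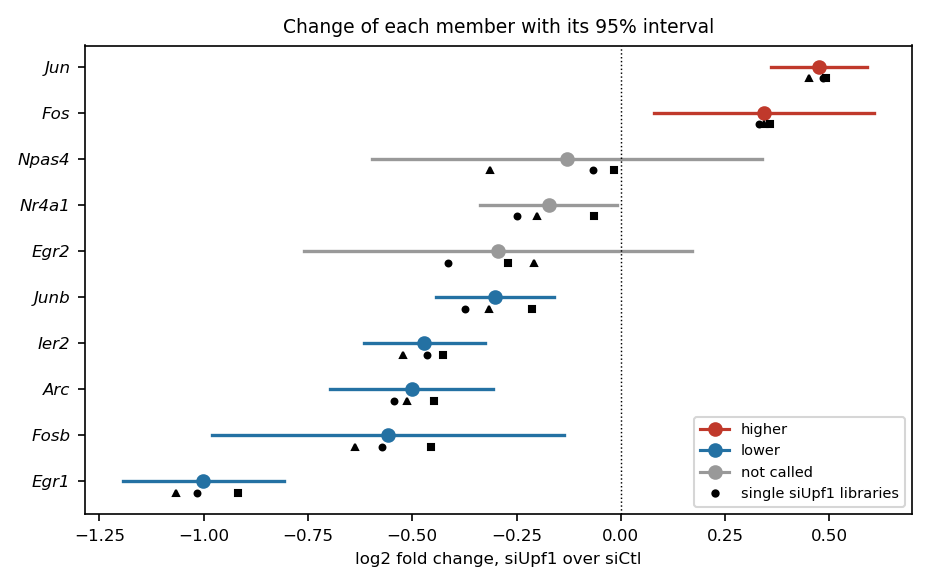
Log2 fold change of siUpf1 over siCtl for each member (coloured point) with its 95% interval from DESeq2's standard error, and below it the log2 ratio of each single siUpf1 library to the siCtl mean (black, circle, square and triangle for replicates 1, 2 and 3). Members run from Egr1 at -1.001 to Jun at 0.48, and the intervals of Egr2 and Npas4 include 0.

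The AP-1 factors include dimers of a FOS and a JUN protein that bind the same short DNA element. Both pairs of relatives examined here split: Fos and Jun were higher and Fosb and Junb lower. Their promoters are shown because these 4 genes are close relatives whose calls went in opposite directions. Each line gives the 150 bases before the RefSeq start site (GRCm38.p6), 5′ to 3′ on the strand of the gene, with matches to the core of the cAMP response element (CRE, TGACG), which CREB family factors bind, and to the EGR site (GCGNGGGCG, with G or T at N) in capitals. The stretches are Fos, chr12:85473740-85473889, plus strand; Fosb, chr7:19310046-19310195, minus strand; Jun, chr4:95052223-95052372, minus strand; and Junb, chr8:84978749-84978898, minus strand.
Fos: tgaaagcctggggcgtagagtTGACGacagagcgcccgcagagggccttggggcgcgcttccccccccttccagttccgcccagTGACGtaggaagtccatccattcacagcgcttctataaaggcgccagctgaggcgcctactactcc
Fosb: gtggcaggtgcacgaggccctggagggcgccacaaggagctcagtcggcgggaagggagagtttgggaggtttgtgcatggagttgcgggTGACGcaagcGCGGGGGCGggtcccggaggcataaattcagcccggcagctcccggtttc
Jun: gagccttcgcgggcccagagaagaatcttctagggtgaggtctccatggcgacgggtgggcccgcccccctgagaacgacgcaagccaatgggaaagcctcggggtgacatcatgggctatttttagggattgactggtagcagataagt
Junb: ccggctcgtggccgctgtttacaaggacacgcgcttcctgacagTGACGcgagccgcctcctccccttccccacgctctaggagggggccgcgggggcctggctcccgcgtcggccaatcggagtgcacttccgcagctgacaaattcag

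In these stretches Fos had 2 CRE matches, Fosb 1 CRE match and 1 EGR match, Junb 1 CRE match, and Jun neither motif in these letters. RefSeq windows of 300 bases (250 before and 50 after the start) were matched for 7 of 10 members, 11 windows in all. Egr1, Arc and Ier2 had no window, so their promoters were not read. The CRE core was read on both strands and also counted where it lies within the full element TGACGTCA. It was present in a window of 6 of the 7 members with a window, which were Fos, Fosb, Junb, Egr2, Npas4 and, with 4 matches, Nr4a1. Of all 32851 windows, 20.8% held it. That is a share of windows, while a member was counted for a match in any of its windows, and Egr2 had 5. The full element, in 1.79% of windows, and the AP-1 site TGANTCA (C or G at N), in 5.20%, were in none of the 11. The CArG box, which the serum response factor binds, was in 4 of 5 windows of Egr2, which overlap in part, and in 1.63% of all windows. It was in no window of the other members that had one, and Egr1 could not be judged. The EGR site was in the windows of Fosb and Nr4a1 and in 3.47% of all. A match describes the letters of the window only, and sites more than 250 bases before the start were not read.

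Fos (ENSMUSG00000021250.13, chromosome 12, 85473890 to 85477273, plus strand, 4 exons) encodes the founding member of the FOS family. It had 270.4 and 268 normalised counts in siCtl and 339, 345 and 341 in siUpf1. Every siUpf1 library was above both siCtl libraries, with a spread of only a few counts in each group. This was a log2 fold change of 0.34 (SE 0.13), a level 1.27 times that of siCtl (95% interval 1.06 to 1.52, DESeq2 adjusted p = 0.0258). This call was lost whenever any 1 of the 5 libraries was left out, with adjusted p-values from 0.0774 (without siUpf1 replicate 1) to 0.178 (without siCtl replicate 3) and a log2 fold change that stayed between 0.34 and 0.35.

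Fosb (ENSMUSG00000003545.3, chromosome 7, 19302696 to 19310051, minus strand, 4 exons), whose splice form ΔFosB accumulates in stimulated neurons, moved the other way. It had 140.5 and 145 normalised counts in siCtl and 96.1, 104 and 91.8 in siUpf1. All siUpf1 values lay below the siCtl values. Fosb fell by 0.56 on the log2 scale (SE 0.22), to 67.9% of the siCtl level (95% interval 50.7% to 91.0%, DESeq2 adjusted p = 0.0239). The call was lost without siCtl replicate 1 (0.138), siCtl replicate 3 (0.194), siUpf1 replicate 1 (0.0837) or siUpf1 replicate 3 (0.117), and the direction was kept. The splice forms of Fosb were not separated by these gene counts.

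Jun (ENSMUSG00000052684.4, chromosome 4, 95049034 to 95052222, minus strand, 1 exon), the main partner of the FOS proteins, was the most abundant member by read count. It had 1859.6 and 1924 normalised counts in siCtl and 2648, 2662 and 2588 in siUpf1. The groups were far apart relative to their spread. The log2 fold change was 0.48 (SE 0.059), a level 1.39 times that of siCtl (95% interval 1.28 to 1.51, DESeq2 adjusted p = 6.36e-15).

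Junb (ENSMUSG00000052837.6, chromosome 8, 84974484 to 84978718, minus strand), a weaker activator that can oppose JUN, had 1744 and 1880.3 normalised counts in siCtl and 1399, 1564 and 1457 in siUpf1. The siUpf1 libraries were lower, and the gap between the groups was little wider than the range within them. Junb fell by 0.30 on the log2 scale (SE 0.072), to 81.1% of the siCtl level (95% interval 73.5% to 89.5%, DESeq2 adjusted p = 0.000124), and the adjusted p-value was 0.0470 without siCtl replicate 3.

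The opposite movement of relatives can be read within a library, free of any scaling between libraries. The ratio of Fos to Fosb read counts was 1.93 and 1.84 in siCtl and 3.53, 3.31 and 3.72 in siUpf1, a mean ratio 1.87 times that of siCtl. The ratio of Jun to Junb was 1.07 and 1.02 in siCtl and 1.89, 1.702 and 1.78 in siUpf1, a mean ratio 1.71 times that of siCtl. Neither ratio overlapped between groups. The ratio of Jun to Fos, the 2 members that were called higher, was 6.88 and 7.18 in siCtl and 7.81, 7.71 and 7.58 in siUpf1, 1.10 times in the means. These pairs were chosen after their values were seen and were not tested, since permuting 2 and 3 libraries exactly cannot give a p-value under 0.1.

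**Figure D3:**
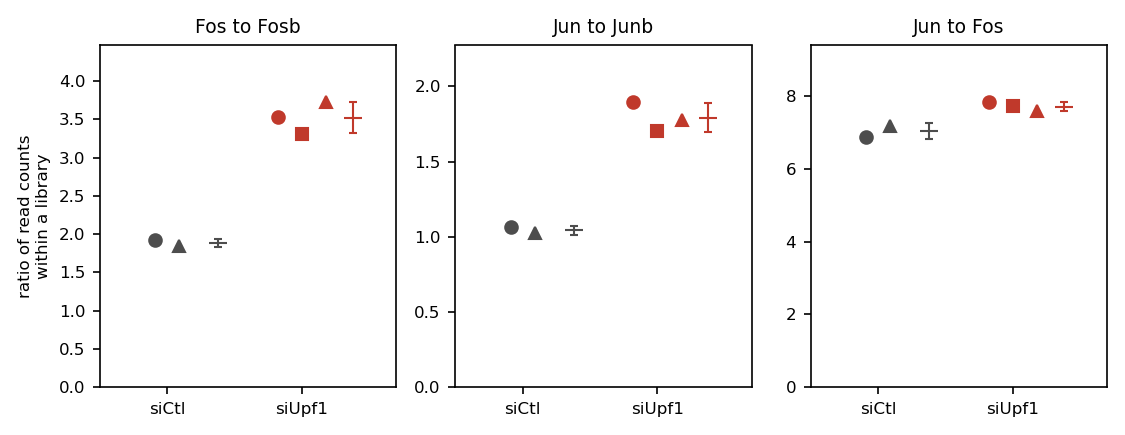
Ratio of raw read counts of 2 members within each library (vertical axes, from 0; circle, square and triangle for replicates 1, 2 and 3), with mean and SD per group. Fos to Fosb lay between 1.84 and 1.93 in siCtl and between 3.31 and 3.72 in siUpf1, Jun to Junb between 1.02 and 1.07 and between 1.702 and 1.89, and Jun to Fos between 6.88 and 7.18 and between 7.58 and 7.81.

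Egr1 and Egr2 encode zinc-finger factors induced through ERK signalling and the serum response factor, and EGR2 is best known for its part in the myelination of peripheral nerve. Egr1 (ENSMUSG00000038418.7, chromosome 18, 34859823 to 34864984, plus strand, 2 exons) changed most of the 10. It had 980.1 and 908 normalised counts in siCtl and 467, 499.5 and 451 in siUpf1. The highest siUpf1 library was far below the lowest siCtl library. The change was -1.001 on the log2 scale (SE 0.099), or 49.97% of the siCtl level (95% interval 43.7% to 57.1%, DESeq2 adjusted p = 8.21e-23).

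Egr2 (ENSMUSG00000037868.15, chromosome 10, 67535475 to 67542188, plus strand, 2 exons) had 115 and 103 normalised counts in siCtl and 81.8, 90.4 and 94.5 in siUpf1. The groups did not overlap, but the counts were low and the change was not called (log2 fold change -0.29, SE 0.24, DESeq2 adjusted p = 0.331). Its 95% interval on the log2 scale was -0.76 to 0.17, and the difference from Egr1 was not tested. The count ratio of Egr1 to Egr2 was 8.5 and 8.83 in siCtl and 5.71, 5.53 and 4.77 in siUpf1.

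Ier2 (ENSMUSG00000053560.5, chromosome 8, 84661331 to 84662852 in GENCODE M21, minus strand) encodes a small nuclear protein induced by serum. It had 1516 and 1471 normalised counts in siCtl and 1081, 1112 and 1040.3 in siUpf1. Every siUpf1 library was lower. Ier2 fell by 0.47 on the log2 scale (SE 0.074), to 72.1% of the siCtl level (95% interval 65.2% to 79.7%, DESeq2 adjusted p = 1.38e-09).

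Nr4a1 (ENSMUSG00000023034.7, chromosome 15, 101254269 to 101274795, plus strand, 7 exons) encodes the orphan nuclear receptor NUR77. It had 1090.2 and 1123 normalised counts in siCtl and 931, 1058 and 963 in siUpf1. Replicate 2 of siUpf1 was close to the siCtl libraries. The log2 fold change was -0.17 (SE 0.084) and its adjusted p-value was 0.0801 by DESeq2 and 0.0286 by edgeR. Without siUpf1 replicate 2 DESeq2 gave 0.0406. Npas4 (ENSMUSG00000045903.9, chromosome 19, 4984355 to 4990316, minus strand, 8 exons) encodes a factor induced by calcium entry that shapes inhibitory synapses. It had 115 and 95.3 normalised counts in siCtl and 100.5, 104 and 84.7 in siUpf1. The libraries of the groups were interleaved, and the estimate of -0.13 on the log2 scale (SE 0.24, adjusted p = 0.707 by DESeq2) had a 95% interval from -0.60 to 0.34. Without siCtl replicate 1 the estimate was 0.010.

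Arc (ENSMUSG00000022602.14, chromosome 15, 74669083 to 74672570, minus strand, 3 exons) encodes a protein that promotes the removal of AMPA receptors from synapses. In GENCODE M21 both of its introns lie in the 3′ UTR, with exon junctions 617 and 757 nt after the stop codon. Arc was the only member with an intron at least 55 nt after the stop codon, the usual criterion for an NMD target. Npas4 was the only member with a transcript annotated as an NMD target (1 of its 3 transcripts), as were 28.6% of the mRNAs examined in the next paragraph. Arc had 757 and 718 normalised counts in siCtl and 506, 541 and 517 in siUpf1. All siUpf1 libraries were lower, with a gap between the groups several times the spread within them. Arc fell by 0.50 on the log2 scale (SE 0.099), to 70.6% of the siCtl level (95% interval 61.7% to 80.8%, DESeq2 adjusted p = 2.43e-06). It was between -0.54 and -0.47 when any 1 library was left out, and lower than siCtl in 3 of 3 siUpf1 libraries. Relative to Egr1, the ratio of Arc read counts was 0.772 and 0.791 in siCtl and 1.08, 1.08 and 1.15 in siUpf1, higher in every siUpf1 library than in either siCtl library. Egr1 was the member that fell most (-1.001 on the log2 scale), so this ratio shows only that Arc fell less than Egr1. The ratio was not tested. These are steady-state levels of polyadenylated RNA, and synthesis and decay of Arc mRNA were not separated.

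The place of Arc among mRNAs of its own structure was examined in 12346 tested mRNAs with a 3′ UTR of at least 50 nt, using 1 representative transcript a gene. Of these, 61 (0.494%) had an intron at least 55 nt after the stop codon. Their median log2 fold change was 0.11, with 16 called higher (26.2%) and 10 called lower (16.4%), where all 12346 had a median of -0.022 with 24.8% higher and 26.8% lower. Arc was therefore 1 of the 10 that were lower. Jun, Junb and Ier2 belong to another small class, the 256 mRNAs (2.07%) whose representative transcript has no intron and so carries no exon junction. In that class 73 were called higher (28.5%) and 19 lower (7.42%), with a median of 0.25. Jun (0.48) was among the 73 and lay above their class median, while Junb and Ier2 were among the 19. No test was made of these shares.

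**Figure D4:**
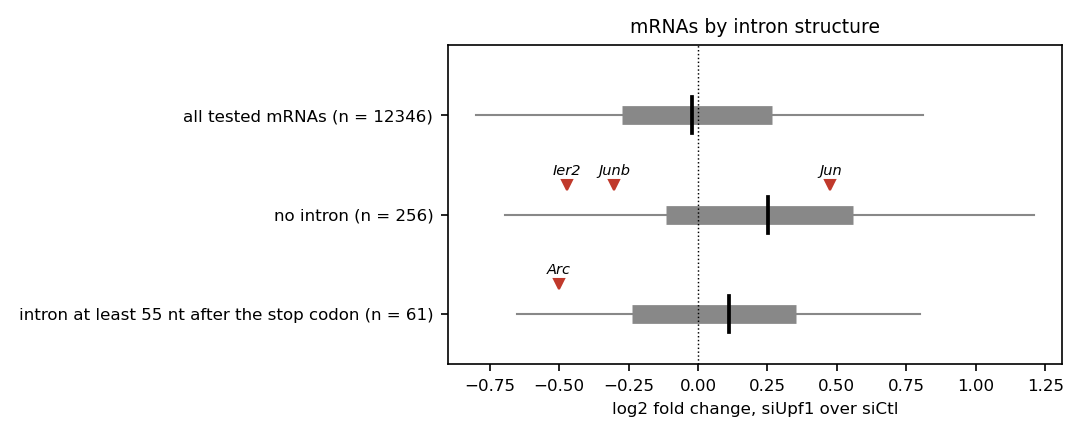
Log2 fold change of siUpf1 over siCtl (horizontal axis) of all 12346 tested mRNAs, of the 256 without an intron and of the 61 with an intron at least 55 nt after the stop codon; grey bars span the quartiles, thin lines the 5th to 95th percentiles, and black ticks mark the medians of -0.022, 0.25 and 0.11. Red triangles mark members: Ier2, Junb and Arc lie below the lower quartile of their class, Jun above the median of its class.

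AU-rich elements in the 3′ UTR, built around the pentamer ATTTA, are the classical signal for the rapid decay of immediate early mRNAs and are bound by proteins such as TTP and HuR. For the 4 AP-1 genes, which split in direction, the 30-base stretch of the representative 3′ UTR with most pentamers is shown, as DNA letters of the transcript from GENCODE M21 with ATTTA in capitals. The stretches begin 632 nt after the stop codon in Fos, 1028 in Jun, 227 in Junb and 1474 in Fosb.
Fos: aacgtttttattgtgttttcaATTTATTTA
Jun: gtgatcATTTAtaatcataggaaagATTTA
Junb: catattgaatataatatatttgtgtATTTA
Fosb: ctaatcccaaaccccacccccagctATTTA

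Fos and Jun, the 2 members called higher, had 4 ATTTA pentamers each in their 3′ UTRs, the most of the 10 members. Egr2 and Nr4a1 had 3, Junb and Egr1 had 2, and Fosb and Npas4 had 1. Ier2 and Arc had 0. The heptamer TATTTAT was in the 3′ UTRs of Fos (2), Jun (1) and Fosb (1). Of the 12346 mRNAs, 66.8% had at least 1 pentamer and 26.2% had at least 4, and 27.97% had the heptamer. Those with at least 4 pentamers had a median log2 fold change of 0.056, with 33.0% called higher and 23.5% lower. In 3′ UTR length the members spanned 485 nt (Junb) to 2145 nt (Fosb) with a median of 1007.5 nt, beside 1006 nt for all. They had fewer exons (median 2.5 against 9) and more GC in the transcript (median 57.1% against 50.7%). A pentamer is a match of letters, and its binding was not measured. Whether the number of pentamers bears on direction was not tested, and the counts were not adjusted for 3′ UTR length.

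A siRNA can also lower mRNAs that match its seed, bases 2 to 8 of either strand. No member's 3′ UTR held the 7-mer for the sense strand of the Upf1 siRNA (AACCTTG), which was in 9.88% of the 12346 mRNAs. Of the mRNAs with it, 37.6% were called lower, beside 26.8% of all 12346. The 7-mer for the antisense strand (GATAATT) was in 7.71% of mRNAs, of which 27.5% were called lower, close to that 26.8%. Among the members it was found once, in Egr1. Whether it bears on Egr1 was not tested.

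Levels of different genes can be compared only per length. As normalised counts per kilobase of annotated exon, the order in siCtl was Ier2 (981 ± 20.9, SD, n = 2), Junb (788 ± 41.8), Jun (593 ± 14.2), Nr4a1 (315 ± 6.55), Arc (241 ± 8.99), Egr1 (210.5 ± 11.4), Fos (114 ± 0.755), Egr2 (32.1 ± 2.60), Npas4 (25.5 ± 3.42) and Fosb (22.9 ± 0.546). Only Npas4 and Fosb overlapped with their neighbour. In siUpf1 Jun stood first (825 ± 12.3, SD, n = 3), before Ier2 (708 ± 23.6) and Junb (640.2 ± 36.4). Fos (145 ± 1.35) had passed Egr1 (105 ± 5.51), and Fosb remained last (15.6 ± 1.01), with Egr2 and Npas4 overlapping. The order depended in part on the length used. Per kilobase of the representative transcript, a length tried after the data were seen, Junb (1002 ± 53.2) and Ier2 (981 ± 20.9) overlapped at the top in siCtl, and Fosb (37.8 ± 0.902) overlapped with Egr2 (36.8 ± 2.97) above Npas4 (29.1 ± 3.91). In siUpf1, on that length, Jun (825 ± 12.3) overlapped with Junb (814 ± 46.2) above Ier2, and Fosb (25.7 ± 1.66) remained last but overlapped with Npas4 (26.6 ± 2.86). The places of Jun, Nr4a1, Arc, Egr1 and Fos relative to each other were as before in both groups. The model of Ier2 in GENCODE M21 is 1 version older than the identifier in the files, so its length and place in this order are less certain.

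The members varied little between replicates. The chi-square per degree of freedom of their read counts within groups, which is about 1 when only counting error acts, was 0.022 (Fos) to 4.61 (Junb) with a median of 0.881. For the 8368 tested genes with means between those of Egr2 and Jun the median was 1.63. Nr4a1 (2.83) and Junb were the members whose spread stood above counting error most. DESeq2 set the gene-wise dispersion of the other 8 members to its lower limit, as it did for 51.3% of those 8368 genes. Replicate 2 of siUpf1, the library with the lowest depth, had the highest of the 3 normalised siUpf1 counts for 9 members, all but Egr2, and also for Upf1.

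Other genes of the same programme were read from 6 lists that hold 89 genes, of which 81 were tested. DESeq2 called 22 of them higher and 28 lower, together 61.7%, where 44.9% of all tested genes were called, 22.0% higher and 22.9% lower. This difference was not tested, and the lists were chosen with earlier results known. Of the 12346 tested mRNAs examined above, a closer background, 24.8% were called higher and 26.8% lower. Among 17 tested of 18 other immediate early transcription factors, 4 were called higher and 7 lower (64.7% called, median log2 fold change -0.22). Nr4a2, a nuclear receptor close to Nr4a1 and needed in dopamine neurons, rose by 1.12 on the log2 scale, from a mean of 98.9 ± 14.4 normalised counts (SD, n = 2) to one of 215 ± 5.59 (SD, n = 3, adjusted p = 3.93e-08 by DESeq2). Klf10 (0.34) and the FOS relative Fosl2 (0.26) were also higher. Atf3, a stress-induced factor that dimerises with JUN, fell from 1079 ± 12.2 to 652 ± 45.0 (-0.73 on the log2 scale), and Maff (-0.54) and the clock gene Per1 (-0.49) fell too. Fosl1, another FOS relative, was chosen after its values were seen, since it is below the level set for naming. It had 40 and 27 raw reads in siCtl and 3, 1 and 5 in siUpf1 (DESeq2 adjusted p = 8.38e-06). Egr4 had no read in any library.

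Among 11 tested of 17 other immediate early effectors, 4 were called higher and 5 lower (81.8% called, median -0.20). The urokinase receptor gene Plaur fell (-0.66). Ccn1, a matricellular protein induced by serum, fell from 342 ± 23.3 to 158 ± 12.4 (-1.11). The kinase gene Sik1 (0.60), Homer1, a postsynaptic scaffold with an activity-induced short form (0.59), and Trib1 (0.33), which encodes a pseudokinase, were higher, but Trib1 lost its call without siCtl replicate 1 (adjusted p = 0.0850). The 5 effectors with a read but no adjusted p-value (Ccn2, Bdnf, Ptgs2, Rgs2 and Plk2) and Nptx2, which had no read, could not be judged at this depth.

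Of 12 feedback inhibitors, 5 were called higher and 3 lower (66.7% called, median 0.081). The inhibitors of receptor signalling Spry2 (0.68) and Spry1 (0.57) and the ERK phosphatase Dusp6 (0.27) were higher, while Dusp2, a phosphatase of nuclear MAP kinases, fell from 622 ± 5.64 to 310.0 ± 12.7 (-1.003 on the log2 scale). Nab2 (-0.77) and Nab1 (-0.44), corepressors that bind EGR proteins and, in the case of Nab2, are induced by EGR1, were both lower, alongside Egr1.

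Of 25 tested upstream kinases and activators, 7 were called higher and 7 lower (56% called, median -0.036). Mapk3, which encodes the kinase ERK1, rose from 1856 ± 58.8 to 2645 ± 130.4 normalised counts (0.51 on the log2 scale). Crem (1.07), which encodes activators and repressors at the cAMP response element, and the calcium-dependent kinase Camk4 (0.67) were higher. Elk1 (-0.35), a partner of the serum response factor, and Rps6ka1 (-0.31) were lower, but Elk1 lost its call without siCtl replicate 1 (log2 fold change -0.24, adjusted p = 0.198). The serum response factor gene Srf itself was not called (-0.17, adjusted p = 0.0722).

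Of 9 AU-rich element binding proteins, 2 were called higher and 3 lower (55.6% called, beside 44.9% of all tested genes, median 0.0096). Zfp36, which encodes TTP, a destabiliser of these mRNAs and itself an immediate early gene, fell from 531 ± 14.2 to 305 ± 26.6 normalised counts (-0.80 on the log2 scale), and its relative Zfp36l2 fell by a like amount, from 2528 ± 30.1 to 1458 ± 56.0 (-0.79). Elavl1 (HuR, -0.14) was called lower and lost its call without siCtl replicate 1 (-0.095). Tia1 (0.65) and Hnrnpd (AUF1, 0.22) were higher. Of 7 regulators of Arc mRNA, 0 were called higher by DESeq2 and 3 lower (median -0.12), and these 42.9% were close to the 44.9% of all tested genes. Fmr1, whose product FMRP represses translation of Arc, fell from 1287 ± 47.5 to 827 ± 84.7 normalised counts (-0.64), its partner Cyfip1 fell (-0.49), and Stau1 (-0.18) was called lower but lost that call without any 1 of 4 libraries. Eif4a3, the exon junction helicase on which decay of Arc depends in neurons, was not called (0.12, adjusted p = 0.0750 by DESeq2 and 0.0443 by edgeR). It was the 1 gene of the list with a higher level at an unadjusted p under 0.05, and the 1 called higher by edgeR.

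**Figure D5:**
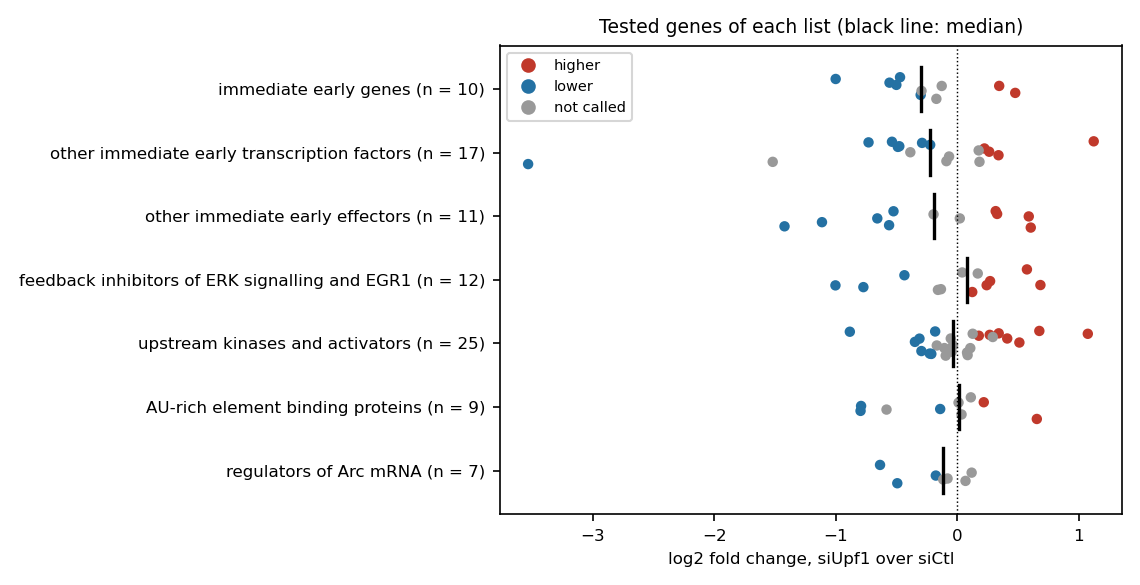
Log2 fold change of siUpf1 over siCtl (horizontal axis) of the tested genes of the 10 members and 6 lists, coloured by DESeq2 call, with black lines at the medians; vertical scatter within a row carries no value. The median was -0.30 for the members, -0.22 and -0.20 for the other transcription factors and effectors, and between -0.12 and 0.081 for the other 4 lists, and each list but the regulators of Arc mRNA held calls in both directions.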

How the data were processed

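RNA-seq was made from N2A cells treated with a control siRNA (2 libraries) or a Upf1 siRNA (3 libraries). The authors deposited raw counts of reads per gene (GRCm38.p6). The submitters' processing notes name bcl2fastq 2.19.0, STAR 2.7.0f, Subread 1.6.4 with featureCounts, R 3.5.1 and DESeq2 1.22.1. Counts per gene do not separate isoforms.

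Here the whole table was fitted with DESeq2 1.42.0 in R 4.3.3 (Wald test, median-of-ratios size factors, independent filtering at 0.05, Benjamini-Hochberg adjustment over all tested genes). The quasi-likelihood test of edgeR 4.0.16 was run as an alternative, and the scripts were tested on simulated data. Other alternatives were TMM and total-count scaling, a minimum of 10 counts in 2 libraries, no filter, shrunken fold changes, a replicate block and leaving out each library. Libraries held 20402205 to 27717594 counts. Transcript structure and 3′ UTRs came from GENCODE M21, in which 99.9% of genes with a read were found, and promoters from RefSeq. The members and lists were chosen with earlier results of these data known. All 10 members are named. From each list, up to 3 genes are named at either end of the ranking by fold change, if called and if their mean normalised count reached 100, and a gene without a call may be named as such. The values of some list genes are not reported here.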

Additional observations from a re-analysis of the deposited data

How the results depend on the processing

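Jun was called higher, and Egr1, Ier2, Arc and Junb lower, by all 12 alternatives. Among these, shrunken fold changes kept the adjusted p-values of the reported fit, so their calls could not differ from it, here or below. The median log2 fold change of the members stayed between -0.33 and -0.25. Deviations from the group mean were weakly correlated between libraries of the same replicate number (-0.0861 for number 1 and -0.0748 for number 3, over 11898 genes). The deviations of the 2 siCtl libraries mirror each other, so these values are not 2 separate checks. They cannot show whether libraries of the same number were prepared together. A replicate block leaves siUpf1 replicate 2 without a siCtl partner, so that library did not bear on the fold changes of the blocked fit. Egr1, for example, was -1.04 with the block and -1.04 without siUpf1 replicate 2. With the block, 3919 genes were called, among them 5 members (1 higher, 4 lower). The same fit called 5 other transcription factors, 5 feedback inhibitors, 8 upstream genes and 3 AU-rich element binding proteins. Fos was then 0.34 (adjusted p = 0.268) and Fosb -0.61 (0.198), neither called. Leaving out 1 library gave 1 member called higher in every case, 5 to 7 members called, and 7 to 11 other transcription factors called. In those fits Fos ranged from 0.34 to 0.35, Fosb from -0.61 to -0.51, Npas4 from -0.26 to 0.010 and Nr4a1 from -0.22 to -0.13. Npas4 was reversed, at 0.010, without siCtl replicate 1. Nr4a1 was called by edgeR (-0.17). The cause was not tested. A fit without 1 siCtl library leaves 1, which is assumed to vary like the siUpf1 libraries. Among values of other named genes, 16 lost their call, 368 kept call and direction, and 0 changed direction. Members near 100 counts, which are Egr2, Npas4 and Fosb, had the widest intervals.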
